A study of Mus musculus with 4 samples.

Results

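The 10 genes examined here belong to the mouse serpin cluster on chromosome 12 and were measured in liver: Serpina1a, Serpina1b, Serpina1c, Serpina1d and Serpina1e (the Serpina1 group), Serpina3k, Serpina3m, Serpina3n and Serpina3c (the Serpina3 group), and the pseudogene Serpina4-ps1. They were selected by gene symbol, 10 of the 35275 genes in the count table, at a time when the ratios between these libraries were already known, so every value of the members below is a description and none was tested. Each of the 10 symbols occurred in 1 row of the table. Liver RNA came from 4 groups of female mice, of which 2 had been given vehicle and 2 AApoAII fibrils, each either sedentary (VS and FS) or after interval training (IT; VI and FI). All mice carried the amyloidogenic Apoa2c allele: the labels name the strain AKR/J with an Apoa2c congenic genotype, whereas the study's methods name R1.P1-Apoa2c, the SAMR1 background with the allele of SAMP1. The fibrils had been isolated from amyloid-laden livers and injected intravenously, while VS and VI mice received the solvent. Training ran for 16 weeks, and livers were taken at 26 weeks of age. RNA was extracted from pools of 4 livers, so 16 mice gave 4 libraries, 1 per group. No value therefore has a replicate error, the share of 1 animal in a pool cannot be told apart from a change in all 4, and the intervals below cover counting error only.

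Serpins are protease inhibitors that carry an exposed reactive centre loop. The target protease cuts the loop, the serpin snaps into a new fold, and both proteins stay bound to each other. Alpha-1-antitrypsin, the product of the Serpina1 genes, is made mainly by hepatocytes, is among the most abundant proteins of plasma, and is best known as the inhibitor of neutrophil elastase. Humans have 1 such gene, whereas laboratory mice carry several near-identical copies whose number differs between strains. The Serpina3 genes of the mouse are likewise an expanded family, related to human alpha-1-antichymotrypsin, an acute phase protein that liver releases in inflammation. Amyloidosis of the AApoAII type is the deposition of apolipoprotein A-II as extracellular fibrils, and injected fibrils act as seeds for it.

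The reactive centre loop is where the copies differ most in what they can inhibit, and it is shown first because the Serpina1 copies differ more there than over their whole reading frame. The Serpina1 loops are given 5′ to 3′ from the Gly-Thr-Glu codons of the hinge, with capitals for the 18 of 81 bases that differ among the 5 copies.
Serpina1a: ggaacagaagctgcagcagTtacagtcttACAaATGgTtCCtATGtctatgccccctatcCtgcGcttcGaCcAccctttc
Serpina1b: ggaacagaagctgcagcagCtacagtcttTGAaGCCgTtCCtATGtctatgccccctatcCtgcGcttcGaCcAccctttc
Serpina1c: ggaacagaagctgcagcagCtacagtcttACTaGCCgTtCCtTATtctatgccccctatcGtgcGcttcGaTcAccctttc
Serpina1d: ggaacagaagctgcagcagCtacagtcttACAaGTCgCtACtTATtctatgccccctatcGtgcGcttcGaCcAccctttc
Serpina1e: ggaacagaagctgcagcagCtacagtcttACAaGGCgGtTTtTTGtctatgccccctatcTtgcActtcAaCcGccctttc
These runs were read from the GENCODE M21 transcript of each gene (build GRCm38) and lie in its last coding exon on the minus strand, at chr12:103853750-103853830 for Serpina1a, chr12:103728317-103728397 for Serpina1b, chr12:103895087-103895167 for Serpina1c, chr12:103763755-103763835 for Serpina1d and chr12:103947093-103947173 for Serpina1e. The codon in front of the shared tail tctatgccccctatc sets the residue after which a protease cuts. It was ATG (methionine) in Serpina1a and Serpina1b, TAT (tyrosine) in Serpina1c and Serpina1d, and TTG (leucine) in Serpina1e. Pairs of copies differed at 5 (Serpina1c and Serpina1d) to 12 bases (Serpina1e with Serpina1a or Serpina1c) of the loop. Over the whole reading frame, the copies were 96.3 to 98.5% identical.

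In the Serpina3 loops, capitals mark the stretch between the first and last bases that all 3 genes share.
Serpina3k: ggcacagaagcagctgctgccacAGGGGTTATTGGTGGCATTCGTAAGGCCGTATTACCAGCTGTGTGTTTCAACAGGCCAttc
Serpina3m: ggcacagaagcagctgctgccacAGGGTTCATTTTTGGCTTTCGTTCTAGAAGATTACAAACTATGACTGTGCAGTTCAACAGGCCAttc
Serpina3n: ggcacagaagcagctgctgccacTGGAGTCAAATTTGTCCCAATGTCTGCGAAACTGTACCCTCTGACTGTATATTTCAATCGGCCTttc
These loops lie on the plus strand, in the last exon of each gene, at chr12:104345269-104345352, chr12:104393769-104393858 and chr12:104413448-104413537. The Serpina3k loop has 84 bases, whereas those of Serpina3m and Serpina3n have 90. Serpina3k and Serpina3m were 91.8% identical over the reading frame, Serpina3k and Serpina3n 83.5%, and Serpina3m and Serpina3n 85.2%. Identity between the Serpina1 and Serpina3 groups was 58.4 to 62.1%.

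The copies lie in 1 stretch of chromosome 12 (GRCm38). On the minus strand, the Serpina1b gene spans chr12:103728156-103830373 and encloses Serpina1d (chr12:103763594-103773592), and Serpina1a (chr12:103853589-103863562), Serpina1c (chr12:103894926-103904887) and Serpina1e (chr12:103946931-103958975) follow. Serpina4-ps1 (chr12:104080649-104086724, plus strand), a pseudogene related to kallistatin, separates both groups. Serpina3c (chr12:104146382-104153870, minus strand) comes next, then Serpina3k (chr12:104338486-104346144), Serpina3m (chr12:104338486-104394257) and Serpina3n (chr12:104406729-104414329), all on the plus strand. Serpina3k and Serpina3m start at the same base and share 60 exon bases.

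How well reads can be assigned differs among the members. Of all 100-base windows in the transcript, 69.3% for Serpina1c and 49.9% for Serpina1a occurred unchanged in a transcript of another gene. The share was 29.3% for Serpina1d, 20.6% for Serpina1b and 14.8% for Serpina1e. Windows of the Serpina3 genes were shared far less often, 6.09% for Serpina3m, 4.85% for Serpina3k, 0.204% for Serpina3n and 0% for Serpina3c, and those of Serpina4-ps1 were shared at 0%. Values of single Serpina1 copies, Serpina1a and Serpina1c above all, are therefore uncertain, and group sums are given beside them. The mice are not of the reference strain, and the number of copies they carry was not tested. Serpina1c also shares 429 of its 1361 exon bases with an antisense gene, B430119L08Rik (79 to 156 counts per library), and the sources used here do not say whether the counting used strand.

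Counts totalled 23442935 (VS), 24524287 (VI), 28814802 (FS) and 24801185 (FI). Levels are CPM, read counts relative to the size of the library, scaled by the trimmed mean of M values (TMM), at which 3 counts were worth 0.102 to 0.127 CPM, and levels between genes are compared by FPKM, which divides by gene length. Albumin (Alb) took 12.1 to 13.6% of counts, and the summed level of 10 hepatocyte markers was 167749 to 182897 CPM, although Cyp2e1 alone was at 11182, 9742, 6011 and 8798 CPM in VS, VI, FS and FI. The 13 skeletal muscle markers, foreign to liver, summed to 78.5, 10.2, 1.12 and 1.07 CPM in VS, VI, FS and FI, with Acta1 (skeletal actin) at 19.3, 2.63, 0.237 and 0 CPM and Mb (myoglobin) at 10.4, 1.03, 0.0339 and 0 CPM. Myh2, a muscle myosin, was at 5.80, 0.616, 0 and 0 CPM. VS thus stood apart in these genes and VI to a lesser degree. Of the markers that passed 1 CPM, 11 of 11 were more than 2-fold lower in FS than in VS, in VI than in VS and in FI than in VI. Over all genes, the shares lower were 2.2, 1.9 and 1.95% in these contrasts. The markers passed the minimum through VS, where they are high, so nothing is read from that count. The part of these genes in the 3 contrasts was not tested. FI versus FS is the contrast between the libraries low in them.

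The Serpina1 group was the more abundant in all 4 libraries. It summed to 7079.55, 7007, 8324 and 8021 CPM in VS, VI, FS and FI, which was 0.713, 0.696, 0.853 and 0.782% of all counts. FS and FI were above VS and VI, and the spread from lowest to highest was small. The Serpina3 group summed to 1869, 3694, 4851 and 5969 CPM in VS, VI, FS and FI, 0.188, 0.367, 0.497 and 0.582% of all counts. All 3 other libraries were thus well above VS, with FI highest. As the tissue is bulk liver, fewer cells of a type and less RNA per cell cannot be told apart.

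Among single copies, Serpina1b ranked highest by FPKM in every library, at 1772, 1726, 2046 and 1941 in VS, VI, FS and FI, which placed it 32nd to 37th of all genes. Serpina1a followed at 1413, 1405, 1636 and 1416 FPKM (40th to 50th). Serpina1c held 816, 691, 820.2 and 747 FPKM. By these values, both methionine copies of the group were its most abundant. That order is uncertain, as 69.3% of Serpina1c, 49.9% of Serpina1a and 20.6% of Serpina1b windows also occur in another gene. How reads from such windows were counted is not stated. Serpina1d stood at 447 FPKM in VS and 517 in VI, and at 819.5 in FS and 779 in FI, where it was level with or above Serpina1c. Serpina1e was far lower, at 26.7, 22.4, 48.7 and 39.3 FPKM. By FPKM, the order Serpina1b, Serpina1a, Serpina1c, Serpina1d, Serpina1e therefore held in VS, VI and FS, while in FI Serpina1d was above Serpina1c. In FS, these neighbours differed by less than 1 FPKM, while their counts were 32919 for Serpina1d and 32165 for Serpina1c.

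Of the Serpina3 genes, Serpina3k, an inhibitor of trypsin-like proteases such as tissue kallikrein, was at 425, 1033, 922.5 and 1355 FPKM in VS, VI, FS and FI. Serpina3n, an inhibitor of granzyme B and cathepsin G, was at 404, 587, 1280 and 1248 FPKM (185th, 115th, 52nd and 57th of all genes). Serpina3m was the lowest of the 3, at 105, 201, 260.0 and 277 FPKM. Serpina3k ranked above Serpina3n in VS, VI and FI, and Serpina3n above Serpina3k in FS. Serpina3c had 1, 2, 0 and 6 counts in VS, VI, FS and FI. That is at or near the floor of 3 counts (0.102 CPM in FS), so it was hardly detectable in any library and no fold is given for it.

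**Figure D1:**
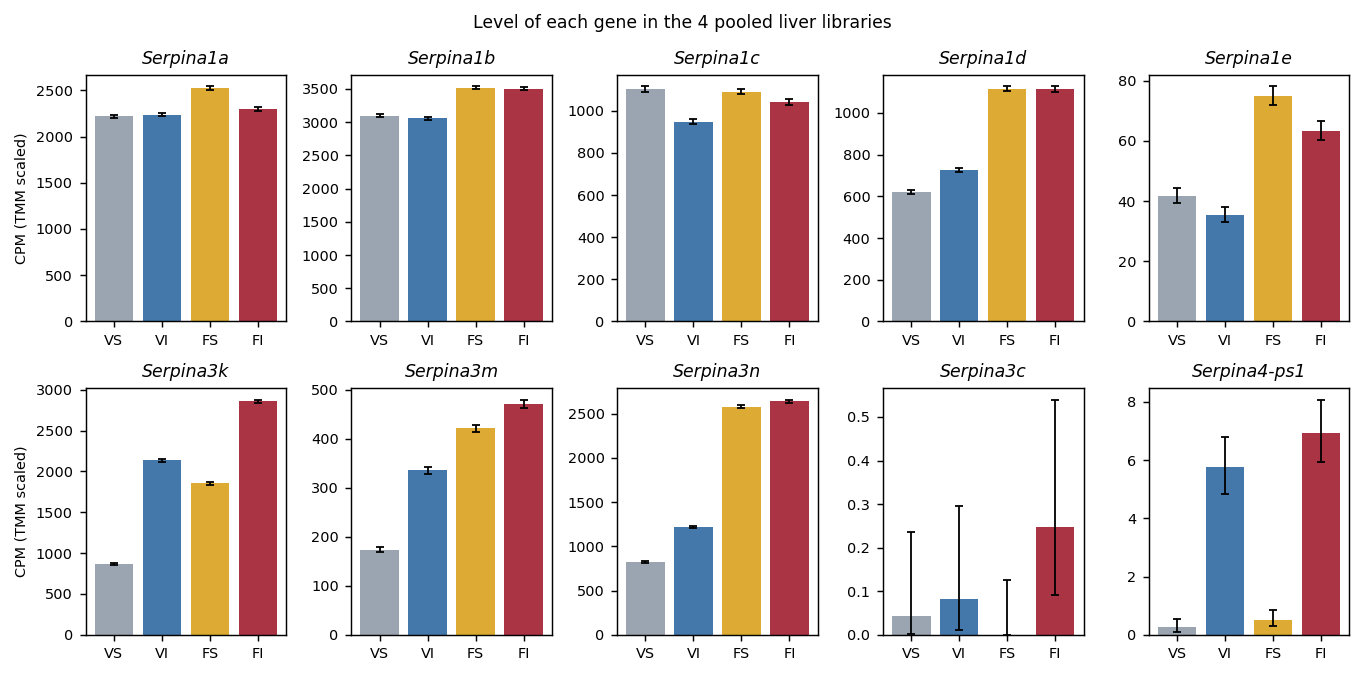
Level of each of the 10 genes in CPM (TMM scaled, linear axes from 0, a scale of its own per gene) in the VS, VI, FS and FI libraries; bars are 1 pooled library each and error bars are 95% counting intervals. Serpina1a, Serpina1b and Serpina1c hardly differ among the libraries, Serpina1d and Serpina1e are higher in FS and FI, Serpina3k, Serpina3m and Serpina3n are lowest in VS, and Serpina4-ps1 is high only in VI and FI.

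The comparison of FS with VS asks what amyloid fibrils changed in sedentary mice. All 3 well expressed Serpina3 genes were more than 2-fold higher in FS, and no Serpina1 copy was, although Serpina1d and Serpina1e came close. Serpina3n was at 2578 CPM in FS against 827 in VS, 3.12-fold (log2 ratio 1.64, 95% counting interval 1.62 to 1.66). Serpina3m was at 421 against 174 CPM, 2.42-fold (log2 1.28, 1.23 to 1.33). Serpina3k was at 1852 against 868 CPM, 2.13-fold (log2 1.09, 1.07 to 1.12). The Serpina3 sum was 2.60-fold higher (log2 1.38, 1.36 to 1.39). These intervals say only how many reads were counted, not how far another pool of mice would lie.

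Within the Serpina1 group the copies differed. Serpina1d was at 1115 CPM in FS against 619 in VS (log2 0.85, 0.82 to 0.88), and Serpina1e at 74.9 against 41.8 CPM (log2 0.84, 0.73 to 0.95), both about 1.8-fold. Serpina1a (2525 against 2218 CPM, log2 0.19) and Serpina1b (3519 against 3099 CPM, log2 0.18) were slightly higher. Serpina1c, at 1089.5 against 1103 CPM, had a log2 ratio of −0.02 that was on the other side of 0 when scaled by total counts. The Serpina1 sum was 1.18-fold higher in FS (log2 0.23, 0.22 to 0.24). Thus the copies with the lower levels stood out, and the abundant ones set the sum.

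A level of 1 CPM or more in any library was reached by 12180 genes, of which 438 (3.6%) were more than 2-fold higher in FS than in VS and 268 (2.2%) lower. Of the 10 members, 9 passed that minimum, all but Serpina3c. Serpina4-ps1 passed it only through VI and FI, at 5.75 and 6.94 CPM. Of the 9, 3 were more than 2-fold higher and 0 lower. Since the genes were selected with this contrast known, nothing is read from that count. The median log2 ratio of the 9 was 0.85, against 0.02 for all genes. By rank, 1.03% of genes had a higher ratio than Serpina3n, 2.003% than Serpina3m, 2.96% than Serpina3k, 5.16% than Serpina1d and 5.24% than Serpina1e. Just beyond the 2-fold limit lay Serpina3k, at 1.09, and just short of it Serpina4-ps1, at 0.93 from 15 against 6 counts, and Serpina1d.

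The same comparison in trained mice, FI with VI, gave higher levels in FI for all 9 members, with smaller ratios for the Serpina3 genes. Serpina3n alone was more than 2-fold higher, at 2640 against 1219 CPM (2.17-fold, log2 1.12, 1.10 to 1.14). Serpina3m was at 471 against 336 CPM (log2 0.49) and Serpina3k at 2857 against 2139 CPM (log2 0.42). The Serpina3 sum was 1.62-fold higher (log2 0.69, 0.68 to 0.70). Serpina3n was therefore the member that differed most between fibril and vehicle pools in both states of training.

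Serpina1d and Serpina1e were again the copies with the larger ratios. Serpina1d was at 1113 CPM in FI against 726 in VI (log2 0.62, 0.59 to 0.64), and Serpina1e at 63.4 against 35.5 CPM (log2 0.84, 0.72 to 0.96). Log2 ratios of Serpina1a, Serpina1b and Serpina1c were 0.04, 0.20 and 0.14, and that of the Serpina1 sum was 0.20 (0.19 to 0.20). Among all genes, 315 (2.59%) were more than 2-fold higher in FI than in VI and 238 (1.95%) lower. Of the 9 members, 1 was higher and 0 were lower, with a median log2 ratio of 0.42 against 0.01 for all genes, and 1.97% of genes had a higher ratio than Serpina3n. FS versus VS and FI versus VI share no library, whereas the VS library enters both FS versus VS and VI versus VS, and FI enters both FI versus VI and FI versus FS.

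**Figure D2:**
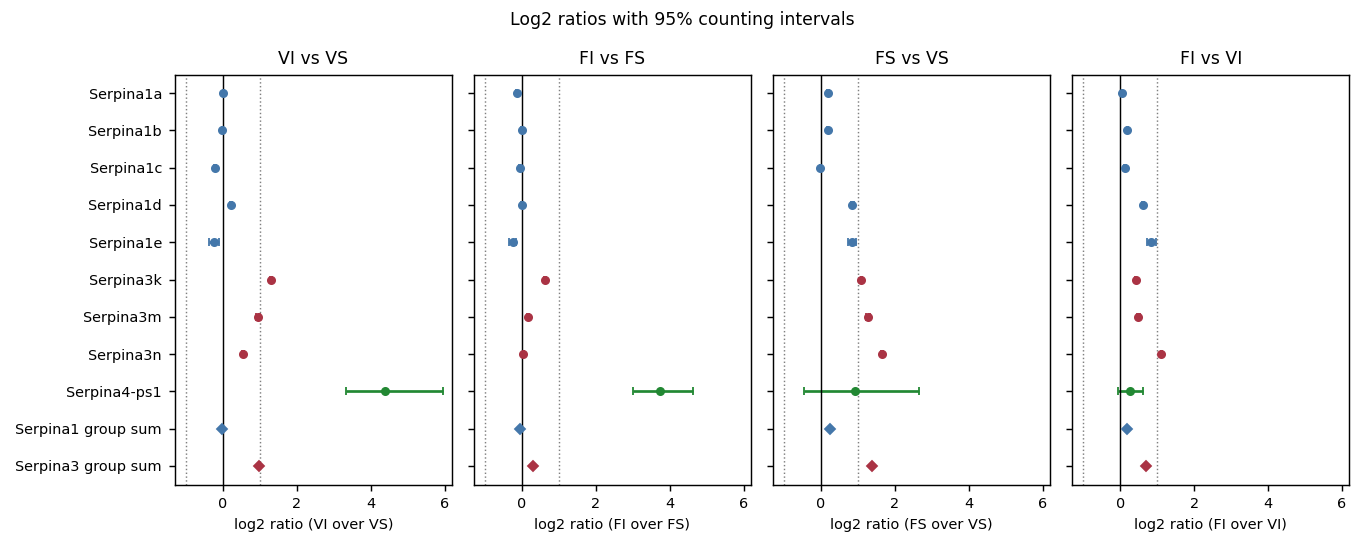
Log2 ratios of the members with at least 1 CPM (circles) and of the group sums (diamonds) in the 4 contrasts; bars are 95% counting intervals, often narrower than the symbol, and dotted lines mark 2-fold. Serpina3k, Serpina3m and Serpina3n lie beyond 2-fold in FS versus VS, Serpina3k and Serpina4-ps1 in VI versus VS, Serpina4-ps1 in FI versus FS and Serpina3n in FI versus VI.

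The comparison of VI with VS asks what IT changed in mice without fibrils. Serpina3k and Serpina4-ps1 were more than 2-fold higher in VI, and the Serpina1 group hardly differed. Serpina3k was at 2139 CPM in VI against 868 in VS, 2.46-fold (log2 1.30, 1.28 to 1.32). Serpina3m was 1.93-fold higher, at 336 against 174 CPM (log2 0.95, 0.90 to 1.01). Serpina3n was 1.473-fold higher, at 1219 against 827 CPM (log2 0.56, 0.53 to 0.59). The order of the 3 genes was thus the reverse of that in FS versus VS, where Serpina3n had the largest ratio and Serpina3k the smallest. The Serpina3 sum was 1.98-fold higher in VI (log2 0.98, 0.97 to 0.999), just short of 2-fold.

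The Serpina1 sum had a log2 ratio of −0.01 in VI versus VS (−0.02 to −0.01), with Serpina1d at 0.23, Serpina1a at 0.01, Serpina1b at −0.02, Serpina1c at −0.22 and Serpina1e at −0.24. The sign for Serpina1a was the opposite when scaled by total counts. Among all genes, 188 (1.54%) exceeded 2-fold in favour of VI and 231 (1.9%) in favour of VS, and of the 9 members 2 were higher and 0 lower. Serpina4-ps1, 1 of these 2, passed the minimum only through VI and FI, so nothing is read from that count. The median of the 9 was 0.23, against 0.00 for all genes. By rank, 0.673% of genes had a higher ratio than Serpina3k.

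In fibril mice, the difference between trained and sedentary pools was smaller. Serpina3k was at 2857 CPM in FI against 1852 in FS, 1.54-fold (log2 0.63, 0.61 to 0.64). Serpina3m was at 471 against 421 CPM (log2 0.16, 0.13 to 0.20). Serpina3n was at 2640 against 2578 CPM, with a log2 ratio of 0.03 that became −0.04 when scaled by total counts. The Serpina3 sum was 1.23-fold higher in FI (log2 0.30, 0.29 to 0.31), and Serpina3k accounted for most of that difference.

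All 5 Serpina1 copies had log2 ratios at or below 0 in FI versus FS, from −0.24 (Serpina1e, −0.34 to −0.15) to −0.00 (Serpina1d, −0.03 to 0.02). With DESeq2 size factors, Serpina1b and Serpina1d were slightly above 0 (0.0045 and 0.0067). The sum was at −0.05 (−0.06 to −0.04). Of all genes, 213 (1.75%) were more than 2-fold higher in FI than in FS and 308 (2.53%) lower. Among the 9 members, 1 was higher, Serpina4-ps1, and 0 were lower, with a median of −0.00 beside 0.00 for all genes. As Serpina4-ps1 passed the minimum only through VI and FI, nothing is read from that count.

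**Figure D3:**
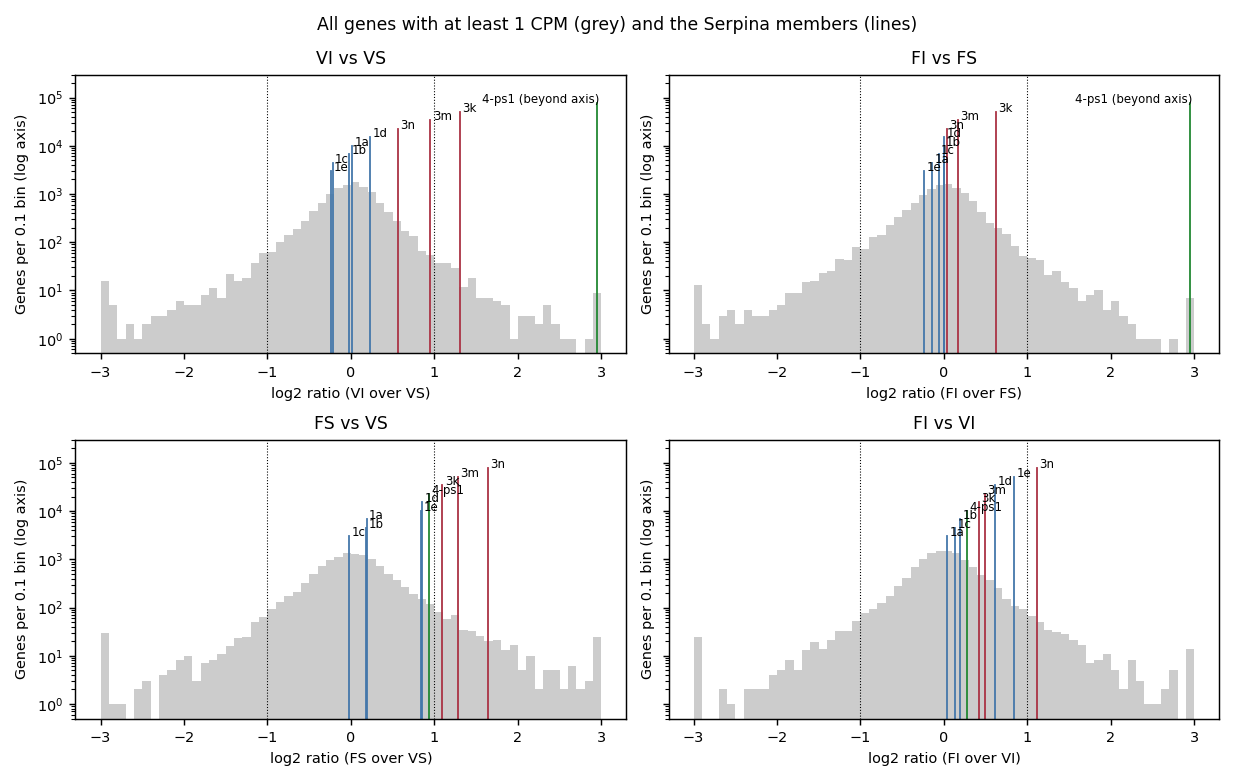
Log2 ratios of all 12180 genes with at least 1 CPM (grey, genes per bin of 0.1 on a log axis, values beyond 3 gathered in the end bins) with the 9 members as lines, blue for Serpina1, red for Serpina3 and green for Serpina4-ps1, each labelled without the prefix Serpina; line heights only separate the labels. The Serpina3 lines stand in the right flank of FS versus VS, from 1.09 to 1.64, and the Serpina1a, Serpina1b and Serpina1c lines in the centre.

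Each factor was thus accompanied by a higher Serpina3 level, and the pools with both factors did not reach the product of the single ratios. The log2 ratio of FI over FS minus that of VI over VS was −0.68 for the Serpina3 sum (95% counting interval −0.70 to −0.66). It was −0.68 for Serpina3k, −0.79 for Serpina3m and −0.52 for Serpina3n. On the linear scale, the sum of both single differences put the Serpina3 level at 6676 CPM, and FI was at 5969 CPM. For the Serpina1 sum, the same difference of log2 ratios was −0.04 (−0.05 to −0.03), with single copies between −0.23 (Serpina1d) and 0.16 (Serpina1c). These are differences between 4 libraries and have no replicate check. Both single ratios use the same VS library, which stood apart in skeletal muscle genes, so an unusual VS pool cannot be told apart from this shortfall. The study also reported less liver amyloid in trained than in sedentary fibril mice, so FS and FI may differ in amyloid load.

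The make-up of the Serpina3 counts moved in opposite directions with fibrils and with IT. Serpina3n was 44.3% of them in VS, 53.1% in FS, 33.0% in VI and 44.2% in FI, while Serpina3k was 46.4, 38.2, 57.9 and 47.9%. Serpina3m remained between 7.89 and 9.29%. The ratio of Serpina3n to Serpina3k counts was 0.953 in VS (95% counting interval 0.934 to 0.972), 1.39 in FS, 0.570 in VI and 0.924 in FI (0.914 to 0.934), so FI was close to VS although its total was more than 3 times as high. The transcripts share few windows, so this ratio rests less on how reads were assigned than those among Serpina1 copies.

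Within the Serpina1 counts, Serpina1b held 42.3 to 43.8% and Serpina1a 28.6 to 31.9% in all libraries. Serpina1d made up 8.74% in VS (8.60 to 8.87) and 10.4% in VI, but 13.4% in FS and 13.9% in FI. Serpina1c was 15.6% in VS and 13.0 to 13.5% in the other libraries, and Serpina1e 0.590, 0.507, 0.9002 and 0.791% in VS, VI, FS and FI. The count ratio of Serpina1d to Serpina1a was 0.279, 0.324, 0.442 and 0.485 in VS, VI, FS and FI. In these counts Serpina1c did not have the higher share of Serpina1d in FS and FI, although both carry a TAT codon at the cleavage position. That contrast is uncertain, as 69.3% of Serpina1c windows and 29.3% of Serpina1d windows also occur in another gene.

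**Figure D4:**
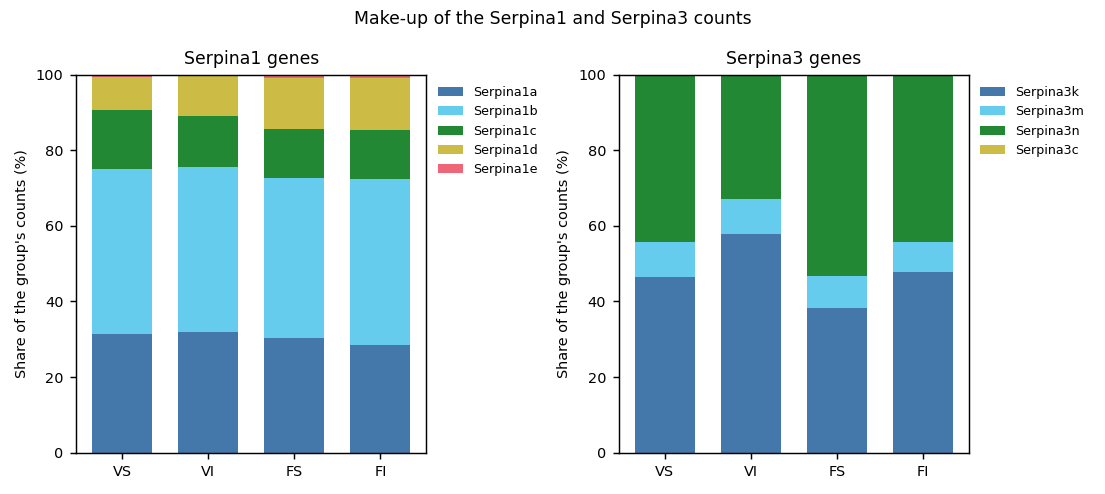
Share in percent of each gene in the summed counts of the Serpina1 group (left) and the Serpina3 group (right) for the VS, VI, FS and FI libraries. Serpina3n takes 53.1% of Serpina3 counts in FS and 33.0% in VI, Serpina1d grows from 8.74% in VS to 13.9% in FI, and Serpina3c is too small to be seen.

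The pseudogene Serpina4-ps1 had another pattern. It had 6, 140, 15 and 168 counts in VS, VI, FS and FI, which is 0.254, 5.75, 0.508 and 6.94 CPM. Both trained pools were thus far above both sedentary pools, with and without fibrils. The ratio was 20.95-fold in VI over VS (log2 4.39, 3.34 to 5.97) and 13.3-fold in FI over FS (log2 3.73, 3.0097 to 4.64), and the difference of both log2 ratios was −0.66 (−2.02 to 0.70). For fibrils the log2 ratio was 0.93 in FS over VS (−0.45 to 2.65) and 0.27 in FI over VI (−0.06 to 0.61), so a difference was not detectable at this depth. In VI versus VS 5 genes and in FI versus FS 2 genes of 12180 had a higher ratio. Serpina4-ps1 entered the 12180 only through VI and FI, where it is high, so nothing is read from these ranks. With so few counts, the fold depends on how low values are handled, and log2(FPKM + 1) gave 2.18 and 2.16.

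Genes with the most similar profile over the 4 libraries were ranked by the distance between log2 CPM values centred on their mean. For the Serpina3 sum these were, of 4493 genes, Slc3a1 (a subunit of a cystine and dibasic amino acid transporter, distance 0.12), Mt2 (metallothionein, 0.17), Cyp17a1 (a steroid hydroxylase, 0.20), Apoa4 (0.26) and Trp53inp1 (0.27). Mt2 was at 790, 1359, 2040 and 2540 CPM in VS, VI, FS and FI. For the Serpina1 sum they were Rere, Ap2b1, Vps29, Gnai3 and Dstn (0.01 to 0.04), genes with hardly any difference among the libraries. For Serpina4-ps1, of 9340 genes, they were Adra2a (an adrenergic receptor, 1.40), Etnppl (2.04), Plin4 (a lipid droplet protein, 2.16), Arntl (the clock factor BMAL1, 2.21) and Lepr (the leptin receptor, 2.39). Adra2a was at 0.635, 4.76, 0.339 and 6.45 CPM in VS, VI, FS and FI. With 4 points a likeness is a description only.

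Promoters could be set beside these levels for 7 of the 10 members, as Serpina3k, Serpina3m and Serpina4-ps1 had no entry in the table of promoters. Those of Serpina1a and Serpina1d are shown because the genes differed in their ratios, and those of Serpina3n and Serpina3c because the genes differ most in level. Each run holds 300 bases from RefSeq (GRCm38.p6), 5′ to 3′ on the strand of the gene, from upstream of the transcription start to 50 bases after it. In both pairs, capitals mark AGAACA, the core hexamer of the glucocorticoid response element, which the Serpina1 promoters hold on the other strand.
Serpina1a: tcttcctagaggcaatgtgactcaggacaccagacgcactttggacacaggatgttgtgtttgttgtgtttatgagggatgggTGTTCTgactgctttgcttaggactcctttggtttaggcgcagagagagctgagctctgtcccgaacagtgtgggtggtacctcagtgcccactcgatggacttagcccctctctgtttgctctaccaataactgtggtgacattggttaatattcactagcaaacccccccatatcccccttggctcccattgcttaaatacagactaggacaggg
Serpina1d: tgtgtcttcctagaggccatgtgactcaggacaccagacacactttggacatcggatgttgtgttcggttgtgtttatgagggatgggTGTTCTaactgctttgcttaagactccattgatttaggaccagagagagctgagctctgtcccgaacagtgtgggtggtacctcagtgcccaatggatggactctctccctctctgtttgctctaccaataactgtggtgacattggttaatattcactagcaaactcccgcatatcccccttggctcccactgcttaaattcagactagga
They lie at chr12:103863570-103863869 and chr12:103773584-103773883 on the minus strand and were 92.9% identical. The second pair follows.
Serpina3n: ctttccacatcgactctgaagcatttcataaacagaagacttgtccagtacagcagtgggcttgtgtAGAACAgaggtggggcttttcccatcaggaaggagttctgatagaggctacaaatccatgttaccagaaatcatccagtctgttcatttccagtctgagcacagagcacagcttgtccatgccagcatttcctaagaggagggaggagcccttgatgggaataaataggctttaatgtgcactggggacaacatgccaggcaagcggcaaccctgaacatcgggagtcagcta
Serpina3c: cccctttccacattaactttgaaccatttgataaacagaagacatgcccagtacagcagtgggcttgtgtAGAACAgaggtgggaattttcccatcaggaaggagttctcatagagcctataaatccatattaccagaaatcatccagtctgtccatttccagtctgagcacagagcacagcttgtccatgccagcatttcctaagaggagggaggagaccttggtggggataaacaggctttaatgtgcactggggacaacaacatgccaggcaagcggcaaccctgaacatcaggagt
They lie at chr12:104406458-104406757 (plus strand) and chr12:104153823-104154122 (minus strand). Over 294 aligned bases they were 93.5% identical, whereas Serpina3n had 76123 counts in FS and Serpina3c 0.

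Both strands were searched for 4 motifs. AGAACA occurred once in each of the 7 promoters, 162 to 224 bases before the start, and in 19.0% of 32851 promoters of this length. CAAAGT, an HNF4 hexamer, was in 4 of the 7 (Serpina1a, Serpina1b, Serpina1d and Serpina3c, and in 14.4% of all), and the C/EBP core TTGCNNAA in 4 (Serpina1a, Serpina1b, Serpina1d and Serpina1e, and in 10.8% of all). The C/EBP match of Serpina1a began 24 bases after the start. Those of Serpina1b, Serpina1d and Serpina1e began 161, 149 and 211 bases before it. The STAT site TTCNNNGAA was in 0 of the 7 and in 8.30% of all. The promoters of the 5 Serpina1 copies were 91.7 to 98.4% identical, so a motif found in all of them is not 5 separate matches.

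The factors behind these motifs were looked up from lists chosen with earlier results known. List counts here and below stand beside the shares of all genes more than 2-fold higher and lower. These were 3.6 and 2.2% in FS versus VS and 2.59 and 1.95% in FI versus VI. They were 1.54 and 1.9% in VI versus VS and 1.75 and 2.53% in FI versus FS. Of 11 hepatocyte transcription factors, 0 were beyond 2-fold in any of the 4 contrasts. Hnf4a was at 727.5, 836, 792 and 1014 CPM in VS, VI, FS and FI, and Cebpa at 618, 402, 421 and 367. Of the rest, Foxa2 was at 37.5, 36.5, 24.5 and 20.7 CPM and Nr5a2 at 29.9, 26.8, 35.7 and 39.7. The median log2 ratios of the 11 were −0.17 (FS versus VS), −0.06 (FI versus VI), −0.16 (VI versus VS) and −0.02 (FI versus FS).

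Some regulators of inflammation were higher with fibrils. Of 13 genes of the IL6, STAT3 and C/EBP pathway, 4 were more than 2-fold higher in FS than in VS (median log2 0.36) and 2 in FI than in VI (0.38), 1 in VI against VS (0.09) and 0 in FI against FS (0.04), while 0 were lower. Il1r1, the interleukin-1 receptor, was at 43.0, 95.1, 118 and 177 CPM in VS, VI, FS and FI, an order with FI highest and VS lowest as for the Serpina3 sum. Socs3, the feedback inhibitor of STAT3, was at 9.53, 12.2, 27.4 and 15.3 CPM and Cebpd at 8.51, 11.9, 19.6 and 26.8 CPM. Stat3 was at 134, 135, 210.3 and 184 CPM, and Cebpb at 150.1, 187, 180.5 and 214.

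Of 10 genes of the glucocorticoid receptor and its targets, 4 were more than 2-fold higher in FS than in VS (median log2 0.89) and 4 in FI than in VI (0.85), 1 in VI than in VS (0.53) and 1 in FI than in FS (0.62). Tat, tyrosine aminotransferase, was at 938, 2018, 3226 and 5278 CPM in VS, VI, FS and FI, and Dusp1 at 23.5, 32.6, 43.3 and 91.1. Nr3c1, the receptor gene itself, was highest in VS, at 87.6, 81.5, 72.7 and 75.0 CPM, as was Per1, at 75.4, 59.6, 73.3 and 69.7. Of the 10, 8 were above 0 and 2 below in FS versus VS and in VI versus VS. In FI versus VI and in FI versus FS, 9 were above and 1 below. Of 10 genes of the growth hormone and STAT5 axis, 0 were beyond 2-fold in any contrast, with medians of −0.34 in both fibril contrasts and −0.23 (VI versus VS) and −0.09 (FI versus FS). Igfals was at 157, 103, 83.3 and 77.0 CPM, Bcl6 at 14.99, 7.92, 18.8 and 12.4, and Cish at 4.66, 6.61, 5.76 and 3.51.

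Acute phase genes are set beside the serpins here, and whether the livers were inflamed was not tested. Of 22 positive acute phase genes, 12 were more than 2-fold higher in FS than in VS and 7 in FI than in VI, 0 were lower, and all 22 were above 0 in both contrasts. Their median log2 ratio was 1.09 in FS versus VS, as high as the ratio of Serpina3k, and 0.65 in FI versus VI. In the IT contrasts 4 were more than 2-fold higher in VI than in VS (median 0.48) and 2 in FI than in FS (0.16). Saa1, serum amyloid A, was at 29.98, 155, 945 and 1803 CPM in VS, VI, FS and FI, Saa2 at 9.95, 51.1, 523 and 1164, and Lcn2, lipocalin 2, at 6.35, 36.5, 367 and 549. The Serpina3 sum, Serpina3m and Serpina3n had the same order of the libraries as Saa1, Saa2 and Lcn2, with far smaller ratios than these. The list did not share that order, as 9 of the 22 were below 0 in FI versus FS, among them Fga, Fgb and Orm1. In FS versus VS, the log2 ratio of Serpina3n, 1.64, was above the list median of 1.09. Of the negative acute phase genes that passed, 10 of 11, 1 was more than 2-fold higher in FS (Apoa4, at 163 against 55.3 CPM) and 0 were beyond 2-fold in the other contrasts. Trf, transferrin, was at 129, 86.8, 111 and 59.1 CPM, and Mup3 at 953, 1111, 557 and 741.

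Alpha-1-antitrypsin folds in the endoplasmic reticulum, leaves it with the cargo receptor encoded by Lman1, and is degraded from there when misfolded. Of 22 genes of its secretion and disposal, 7 were more than 2-fold higher in FS than in VS (median log2 0.56) and 2 in FI than in VI (0.29), against 1 in VI than in VS (0.05) and 0 in FI versus FS (−0.22), and 0 were lower in any of the 4. The chaperone Hspa5 was at 308, 430.3, 1161 and 823 CPM in VS, VI, FS and FI. Syvn1, the ubiquitin ligase of the disposal pathway, was at 53.3, 54.3, 166 and 96.0 CPM, and Derl3 at 0.762, 1.81, 17.3 and 11.99. Lman1 was at 136, 148, 209 and 171 CPM. In these 4 genes FS was the highest library. Others of the list differed, with Canx, Mcfd2, Os9 and Sec23a highest in FI and Sar1b and Man1b1 highest in VS. The Serpina1 sum was highest in FS (8324 CPM), whereas Serpina3k and Serpina3m were highest in FI. A link between the list and the serpin levels was not tested.

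Other serpins did not share 1 pattern. Of 16 rows for other clade A serpins, 8 passed 1 CPM, of which 3 were more than 2-fold higher and 1 lower in FS than in VS (median 0.70), and 0 and 0 in FI versus VI (0.30). In VI versus VS all 8 were below 0 (median −0.22, 0 beyond 2-fold), and in FI versus FS too (median −0.43, 1 lower). In VI versus VS, however, the counting interval included 0 for 5 of the 8 (Serpina3f, Serpina3g, Serpina3h, Serpina3i and Serpina10), with Serpina3i at 33 counts in both libraries and Serpina3g at 92 and 93. Serpina6, corticosteroid-binding globulin, was at 1225, 735, 493.5 and 469 CPM in VS, VI, FS and FI, a log2 ratio of −1.31 in FS versus VS (−1.34 to −1.28), with VS highest. Serpina7, thyroxine-binding globulin, was at 25.1, 16.7, 73.1 and 23.3 CPM, with FS alone high. Serpina3g was at 3.94, 3.78, 8.60 and 4.30 CPM.

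Of 12 serpins of other clades, 11 passed, with 1 more than 2-fold lower in FS versus VS (median −0.25), 1 higher in FI versus VI (−0.04), 2 lower in VI versus VS (−0.24) and 2 lower in FI versus FS (−0.09). Serpinb9, an intracellular inhibitor of granzyme B, was at 3.68, 2.504, 5.49 and 2.73 CPM in VS, VI, FS and FI. Serpinb1a, an intracellular inhibitor of neutrophil proteases, was at 9.40, 2.30, 3.25 and 1.53 CPM, and Serpinh1, the collagen chaperone, at 5.29, 1.56, 2.88 and 3.803. All 3 were low in CPM, and their order among the libraries differed from that of the members.

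**Figure D5:**
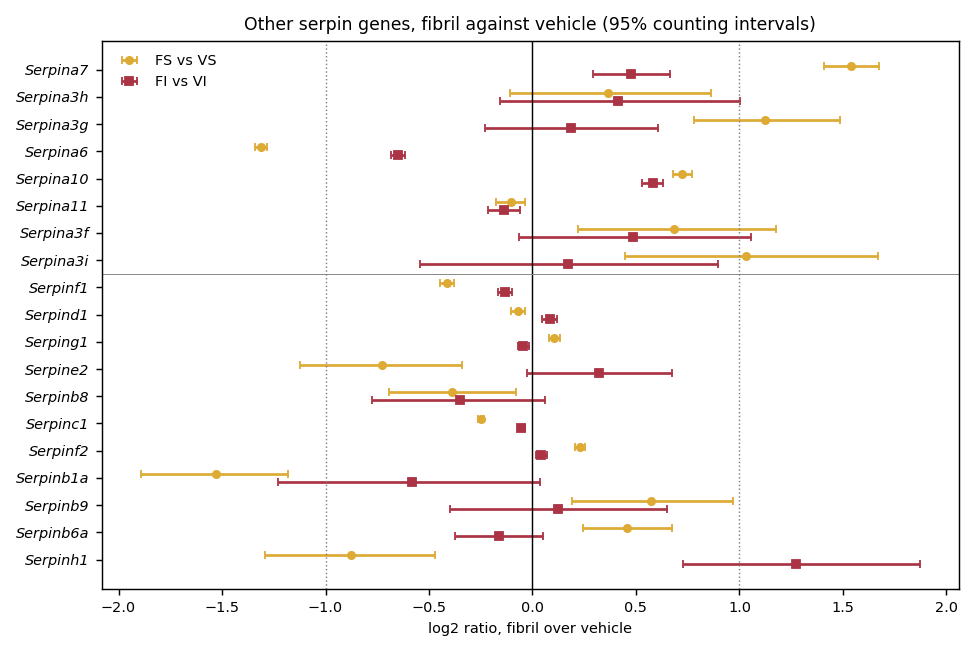
Log2 ratios of fibril over vehicle for the other serpin genes with at least 1 CPM, in sedentary (FS versus VS, circles) and trained pools (FI versus VI, squares); bars are 95% counting intervals, dotted lines mark 2-fold, and the grey line separates clade A (above) from other clades. Serpina7 and Serpina6 lie furthest to the right and among those furthest to the left in FS versus VS, at 1.54 and −1.31, and most abundant serpins of other clades lie near 0.

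Of 18 proteases that clade A serpins inhibit, 7 passed 1 CPM, with 3 more than 2-fold higher in FS versus VS (median log2 0.60), 1 higher in FI versus VI (−0.05), 0 beyond 2-fold in VI versus VS (0.06) and 1 lower in FI versus FS (−0.29). The 3 were Prtn3, Cela2a and Klk1b4. Cela2a, at 0.423, 0.698, 2.57 and 0.579 CPM in VS, VI, FS and FI, passed only through FS. Klk1b4, at 0.508, 0.821, 1.52 and 1.24 CPM, passed only through FS and FI. Cela2a was also the gene lower in FI versus FS, so nothing is read from either count. Neutrophil elastase (Elane), the best known target, had 3, 0, 5 and 0 counts in VS, VI, FS and FI, and cathepsin G (Ctsg) had 0 in all. Prtn3, proteinase 3, was at 0.593, 1.11, 13.1 and 10.1 CPM, high in both fibril pools. Cela1 was at 22.8, 12.6, 12.6 and 12.2 CPM, and F11, coagulation factor XI, at 32.1, 33.6, 48.6 and 48.3. Tmprss6, a hepatocyte membrane protease, held most of the summed level of the list, at 709, 736, 583 and 601 CPM. The neutrophil targets Elane and Ctsg were thus at or near the floor, while Tmprss6 and others were well measured.

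Kupffer cell markers were higher in the fibril pools, as was the sum of neutrophil markers, which was mostly Prtn3 there. The 12 neutrophil markers summed to 2.92, 3.65, 18.9 and 14.1 CPM in VS, VI, FS and FI, most of it Prtn3 in FS and FI, with 3 of the 12 passing 1 CPM and Mpo at 0, 0, 1 and 0 counts. The 11 Kupffer cell markers in the table summed to 360, 422, 570 and 545 CPM, and all 11 were higher in FS than in VS and in FI than in VI (1 and 0 beyond 2-fold). Marco was at 6.18, 11.5, 12.9 and 17.4 CPM, Lyz2 at 37.7, 32.4, 71.1 and 53.7, and Cd5l at 52.8, 74.9, 94.8 and 75.5. Lymphocyte and plasma cell markers summed to 15.6 to 30.4 CPM, stellate cell markers to 181 to 213, endothelial markers to 200 to 242, cholangiocyte markers to 12.6 to 20.1, pancreas markers to 0.423 to 2.57 and adipose markers to 8.47 to 10.9 CPM. These sets had no common direction in FS versus VS, with stellate cell markers at 3 above and 7 below 0 (median −0.15) and endothelial markers at 3 and 5 (−0.18). Igkc was at 10.4, 7.14, 17.5 and 13.3 CPM and Ighm at 8.64, 5.75, 8.30 and 6.57. Lyve1 was at 0.678, 1.03, 1.83 and 6.57 CPM, Cdh5 at 13.5, 13.8, 14.9 and 20.4, and Pecam1 at 14.02, 15.1, 17.004 and 21.6, so these endothelial genes were highest in FI. Of the stellate cell markers, Des was at 6.78, 3.37, 3.12 and 4.13 CPM, Pdgfrb at 4.53, 3.24, 6.57 and 3.02, and Col3a1 at 8.47, 5.99, 7.25 and 3.89. Spp1 was at 16.4, 14.04, 15.1 and 7.15 CPM and Fabp4 at 6.56, 6.49, 4.88 and 7.65. The part of any of these cells in the serpin levels was not tested.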

How the data were processed

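Liver RNA of 4 pools (VS, VI, FS and FI, 4 mice each) was sequenced by the authors as 1 library per group. The authors deposited read counts per gene without normalization, and FPKM values that equalled those recomputed from count, gene length and library total (ratio 1 for 69722 values). The submitters' processing notes name fastp 0.23.2, STAR 2.5, HTSeq 0.6.1 and the mm10 build, and the handling of reads that match several genes is not stated in the sources used here. Start and end of 10 of 10 members equal those in GENCODE M21. The study used edgeR, and the dispersion it assumed for groups of 1 library is not given.

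The members, the gene lists and the comparisons were chosen with earlier results of these data known. Counts were scaled by TMM with edgeR 4.0.16 in R 4.3.3, log2 ratios took a prior of 0.5 counts, and intervals (95%) were exact conditional binomial or, for shares, Clopper-Pearson. They cover counting error only. Genes that reached 1 CPM in any library entered counts of genes beyond 2-fold. No test was run, as each group had 1 library. Named genes were all members, the 3 genes of each list with the largest absolute log2 ratio among those that reached 5 CPM, genes needed to explain a role, and the 5 nearest profiles. Alternatives were DESeq2 1.42.0 size factors, total counts, TMM without the members, deposited FPKM with a pseudocount of 1, a prior of 5 counts, no filter, a 5 CPM filter and a 1.5-fold threshold; a 100 CPM filter was added after seeing the data. The ratio calculation was tested on simulated data. Figures used matplotlib 3.10.9 under Python 3.11.15. Of the genes in the fixed lists, 2 are not reported here and were left out of the counts.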

Additional observations from a re-analysis of the deposited data

How the results depend on the processing

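The direction of both group sums held in all 4 contrasts under each scaling tried. With total counts the log2 ratios of the Serpina1 sum were −0.0350 for VI over VS, −0.124 for FI over FS, 0.258 for FS over VS and 0.169 for FI over VI, and with FPKM −0.0366, −0.126, 0.263 and 0.174 in the same order; with DESeq2 size factors they were −0.0440 (FI versus FS) and 0.219 (FS versus VS). For the Serpina3 sum, total counts gave 0.963, 0.228, 1.40 and 0.666, and FPKM 0.962, 0.226, 1.40 and 0.661. Over single members, values stayed inside their counting interval in 40 of 40 cases with TMM without the members and with a prior of 5 counts, 39 with DESeq2, 21 with total counts and 20 with FPKM. Whether a value stays inside depends on the width of its interval, which is wide for low counts. The largest shift in log2 ratio was 2.56 with a prior of 5 counts and 3.84 with FPKM, both for Serpina3c in FI versus FS. It was 0.071 with total counts, 0.014 with DESeq2 and 0.00075 with TMM without the members. Again in that order, genes beyond 2-fold numbered 4030, 4177, 4567 and 4197 without a filter, 144, 203, 353 and 229 at 5 CPM, 34, 31, 79 and 50 at 100 CPM (added after seeing the data), and 1418, 1647, 2140 and 1702 at 1.5-fold, against 419, 521, 706 and 553. Members beyond 2-fold were 2 in FI versus FS, 2 in FI versus VI and 4 in FS versus VS without a filter, the addition being Serpina3c near the floor; at 1.5-fold they were 3 in VI versus VS, 2 in FI versus FS, 6 in FS versus VS and 3 in FI versus VI, and at 100 CPM 1 for VI over VS and 0 for FI over FS, as Serpina4-ps1 left. Nothing is read from these member counts, since the members were selected with these contrasts known. No paired analysis was possible because each group had 1 library. Depth limits Serpina3c and Serpina4-ps1, and the pooling of mice limits all contrasts.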
